A study of Equus caballus with 15 samples.

Results

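The genes described here encode the proteins of the cytosolic ribosome, together with EEF1A1 and EEF1A2, the paired forms of elongation factor 1 alpha. They were taken from the deposited count table by symbol: rows named as large-subunit (RPL), small-subunit (RPS) or stalk (RPLP) proteins or RPSA whose description does not say pseudogene, plus the elongation factor pair. This gave 83 of the 30297 rows, of which 49 encode large-subunit or stalk proteins and 32 small-subunit proteins. After the filter on low counts 82 of the 83 were tested among 15343 genes, and RPL10L, a copy of RPL10 known from testis in human, was not, with 22 counts in all.

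RNA had been sequenced from cryosections of the front limb's superficial digital flexor muscle and its tendon in 5 euthanized horses, numbered 14, 16, 17, 18 and 20, 4 mares and 1 gelding of 5 to 7 years. From each horse's biopsy punch of 4 mm, about 200 micrometres each were collected as an MTJ sample, which holds the myotendinous junction where muscle fibres end on tendon collagen together with some muscle and some tendon, as a Muscle sample and as a Tendon sample. The design was 5 MTJ, 5 Muscle and 5 Tendon libraries, each horse giving all 3, with no treatment or allele in any group. The labelled training state of horse 14 differs between its Muscle library and its other 2, so training was not compared.

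A ribosome joins a large and a small subunit, each built of ribosomal RNA and many proteins that are needed in near-equal numbers. Nearly all ribosomal protein mRNAs carry a short pyrimidine tract at their start and are translated together under control of the mTOR pathway. Skeletal and heart muscle are known for making a copy of RPL3 called RPL3L, and muscle and neurons for replacing EEF1A1 with EEF1A2 after birth, both known from mouse and human.

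The libraries held 15304218 to 19295339 counts, and levels are given as CPM (each count divided by the effective library size, which is the total count times its TMM factor, and put on a per-1e6 scale), or as log2 fold changes with their standard error (SE). The summed CPM of 9 muscle fibre markers, among them CKM and ACTA1, was 111500 to 146900 in MTJ, 158000 to 190400 in Muscle and 273.7 to 29010.0 in Tendon libraries. That of 8 tendon fibroblast markers, among them COMP and TNMD, was 555 to 2572 in MTJ, 133.5 to 229 in Muscle and 9449 to 17010.0 in Tendon libraries, so markers placed each library with its label, while 3 Tendon libraries (horses 14, 16 and 17) held much muscle-type RNA. Macrophage markers summed to 63.3 to 128 CPM in MTJ, 26.7 to 68.8 in Muscle and 109.8 to 249.8 in Tendon libraries, with 1 of the 6 at 0 in every library. Endothelial markers summed to 288 to 421 CPM in MTJ, 275 to 395 in Muscle and 375 to 834 in Tendon libraries, and lymphocyte markers to 2.19 to 10.9 CPM over all 15. Adipocyte markers summed to 30.5 to 121 CPM in MTJ, 36.8 to 122 in Muscle and 17.7 to 55.7 in Tendon libraries, with 1 of the 4 at 0. What these cells contributed to ribosomal protein levels was not tested, and in bulk sections fewer cells of a type and less RNA per cell cannot be told apart.

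RPL3L and RPL3 encode alternative forms of the same large-subunit protein, which lies near the ribosome's catalytic centre, and their transcripts moved in opposite directions across the tissues. In the order of horses 14, 16, 17, 18 and 20, RPL3L (chromosome 13) had 259.7, 285, 225, 233 and 210.2 CPM in MTJ libraries. It had 345, 361, 262, 329 and 233 CPM in Muscle libraries and 46.1, 85.0, 35.0, 0.878 and 10.3 CPM in Tendon libraries. MTJ and Muscle values overlapped, every Tendon value lay below them, and the Tendon library of horse 18 held almost none. RPL3 (chromosome 28) had 277, 261, 350.3, 375 and 231 CPM in MTJ libraries and 215, 198, 203, 145 and 148 CPM in Muscle libraries. In Tendon libraries RPL3 stood at 1166, 1200.3, 1289.7, 1251 and 1229 CPM. The 3 tissues did not overlap for RPL3, and its Tendon values were tight, at 1227 ± 47.2 CPM (SD, n = 5).

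**Figure D1:**
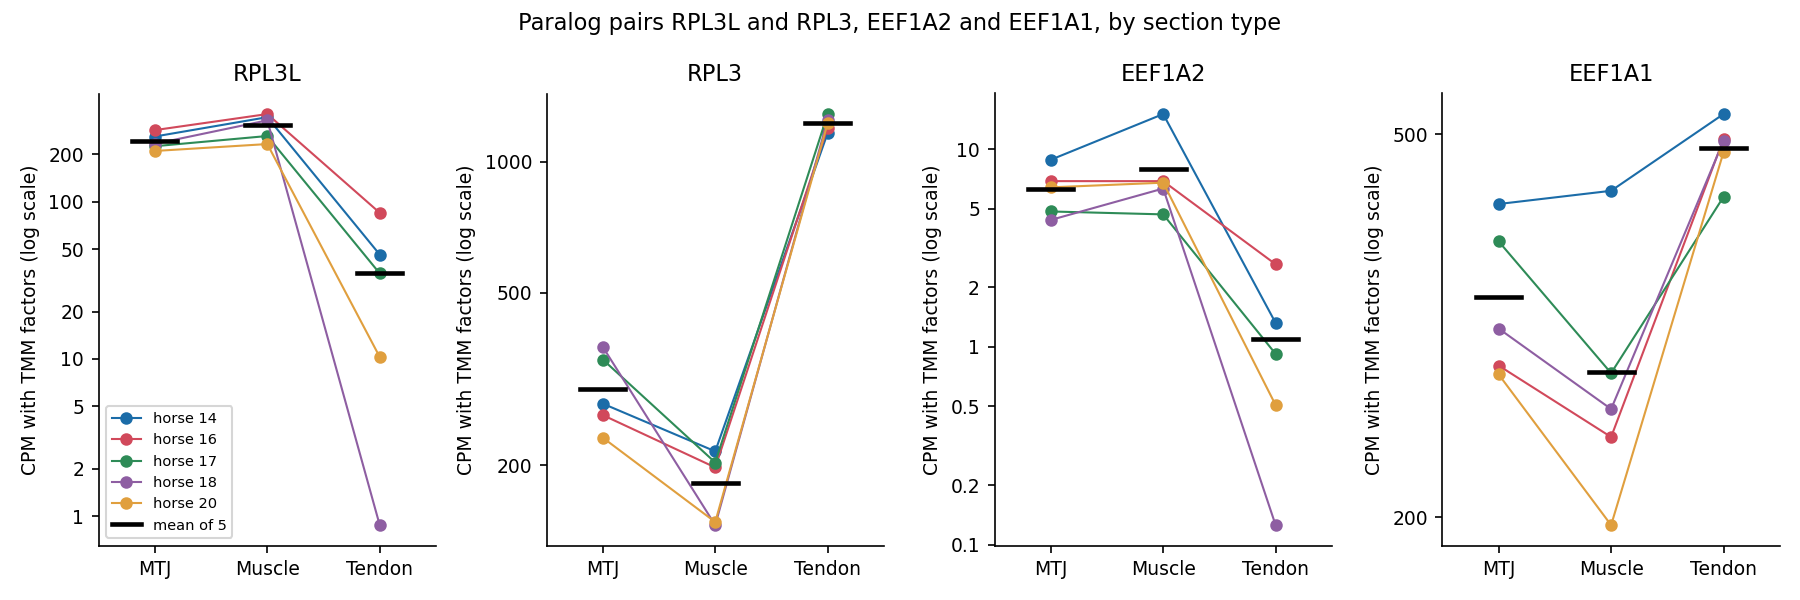
CPM with TMM factors (log scale) of RPL3L, RPL3, EEF1A2 and EEF1A1 in MTJ, Muscle and Tendon libraries; each line joins the 3 libraries of a horse and black bars are means of 5. RPL3L and EEF1A2 drop in Tendon to different depths by horse, with horse 18 lowest, while RPL3 is lowest in Muscle and above 1100 CPM in every Tendon library.

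Muscle libraries carried RPL3L at a log2 fold change of 3.54 ± 0.81 (SE) over Tendon and RPL3 at -2.76 ± 0.17 (adjusted p = 0.00315 and 2.84e-08, edgeR, quasi-likelihood fit with a term for each horse). MTJ libraries carried RPL3L at 3.21 ± 0.80 and RPL3 at -2.05 ± 0.17 over Tendon (adjusted p = 0.00581 and 4.61e-07, edgeR). Between the sections that share muscle, RPL3 was higher in MTJ than in Muscle by 0.71 ± 0.16 (adjusted p = 0.0187, edgeR) in 5 of 5 horses. This RPL3 call was lost without horse 17, 18 or 20, at log2 fold changes of 0.69, 0.56 and 0.73 and edgeR adjusted p of 0.0866, 0.0946 and 0.0573. RPL3L was lower in MTJ than in Muscle in 5 of 5 horses, at -0.33 ± 0.71, and did not pass (adjusted p = 0.841, edgeR). In an edgeR fit of only these 10 libraries the RPL3L difference was -0.32 with an edgeR adjusted p of 0.00365.

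The ratio of the 2 transcripts within a library does not depend on how libraries are scaled. RPL3L made up 48.4, 52.2, 39.1, 38.4 and 47.6% of the RPL3L plus RPL3 counts in MTJ libraries, with a mean of 45.1% ± 6.09 (SD, n = 5). It made up 61.6, 64.6, 56.3, 69.3 and 61.1% in Muscle libraries, a mean of 62.6% ± 4.80 (SD, n = 5), with no overlap with MTJ. In Tendon libraries it was 3.80, 6.61, 2.64, 0.0701 and 0.831%, a mean of 2.79% ± 2.59 (SD, n = 5). The counting error on any of these shares was at most 1.38 percentage points (exact Clopper-Pearson 95% interval, counting error only), far less than the spread between horses. The log2 ratio differed by tissue in an exact permutation test within horses (p = 0.000772, the smallest the 7776 arrangements allow, also after adjustment over the 2 ratios tested). Within horses it was -1.03 ± 0.47 (SD, n = 5) in MTJ minus Muscle, 5.92 ± 2.40 in MTJ minus Tendon and 6.96 ± 2.82 in Muscle minus Tendon, with the same sign in 5 of 5 horses each time. An exact two-sided sign-flip test over 5 pairs cannot go below p = 0.0625, the value each difference reached. Per length, using the length column of the table, whose definition the header does not give, the RPL3L level was 0.795 times the RPL3 level in MTJ, 1.63 times in Muscle and 0.0131 times in Tendon libraries (geometric means), or 0.0274 times in Tendon without horse 18. Without horse 18 the log2 ratio was 4.96 in MTJ minus Tendon and 5.79 in Muscle minus Tendon.

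The RPL3L level in Tendon libraries is given beside that of other muscle transcripts. It was 13.4, 23.6, 13.4, 0.267 and 4.43% of the same horse's Muscle level, and the median of 217 genes from the authors' list of muscle reference genes, which does not hold RPL3L, was 13.7, 17.6, 11.7, 0.332 and 2.57%. Both were high in horses 14, 16 and 17 and low in horses 18 and 20. In MTJ libraries RPL3L stood at 75.4, 79.0, 86.1, 70.9 and 90.4% of the Muscle level, and those reference genes at 80.4, 83.4, 75.7, 68.7 and 79.7%. With only horses 18 and 20 kept among the Tendon libraries, the Muscle over Tendon change of RPL3L was 5.91 and that of RPL3 -2.91. For RPL3, the MTJ level was 23.8, 21.7, 27.2, 29.9 and 18.8% of the Tendon level, against 18.4, 16.5, 15.7, 11.6 and 12.03% in Muscle libraries. The median of 322 tendon reference genes in MTJ libraries was 13.7, 12.3, 24.5, 16.8 and 12.2% of the Tendon level. Both lists give each gene's change between muscle and tendon, so low levels in the other tissue are not an independent result.

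**Figure D2:**
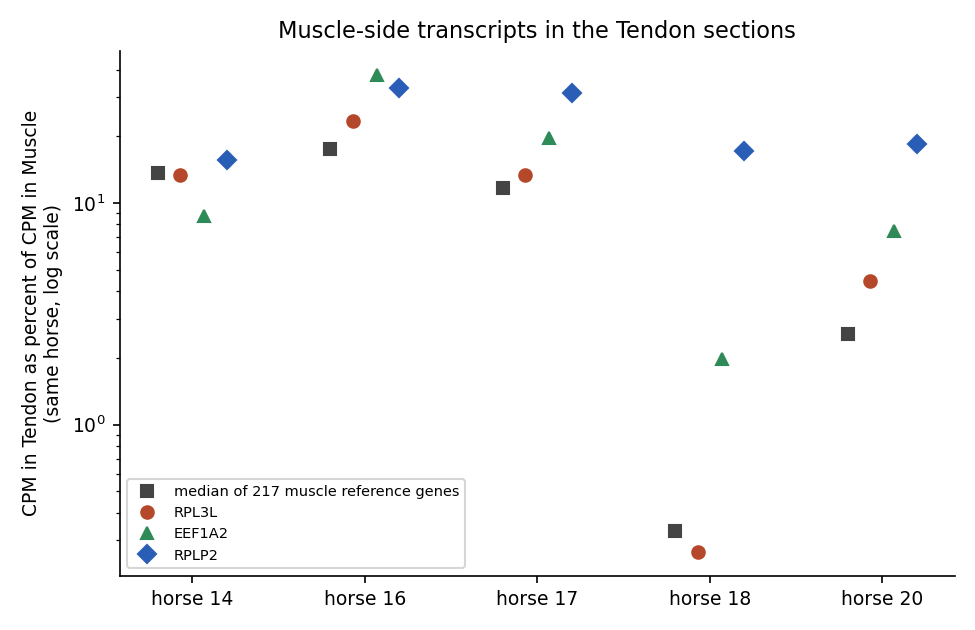
CPM in the Tendon library as a percent of CPM in the Muscle library of the same horse (log scale), for RPL3L, EEF1A2, RPLP2 and the median of 217 muscle reference genes. RPL3L and the reference median are both lowest in horse 18, at 0.267 and 0.332%, whereas RPLP2 stays between 15.7 and 33.0%.

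In the authors' deposited table, which sets each MTJ library against a value predicted from the horse's Muscle and Tendon libraries, 75 of the 83 genes are listed and 0 have an adjusted p under 0.05, against 0.394% of the 7613 listed genes. The authors' mean log2 values there are 0.017 for RPL3L, -0.18 for RPL3 and 0.21 for EEF1A1, and the median over the 74 listed ribosomal protein genes is -0.03. RPS7, above its predicted value in 0 of 5 horses, has an authors' adjusted p of 0.988 (test not named). RPS26, above it in 5 of 5 horses, has 0.137, and RPL3, above it in 1 of 5, has 0.976. How that test treats genes below the prediction is not given, so 0 calls cannot tell whether any gene lies below it.

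EEF1A1 and EEF1A2 deliver aminoacyl-tRNA to the ribosome. EEF1A2 was scarce in all tissues, with 8.85, 6.90, 4.84, 4.39 and 6.42 CPM in MTJ libraries and 15.1, 6.90, 4.68, 6.33 and 6.78 CPM in Muscle libraries. Tendon libraries had 1.32, 2.62, 0.922, 0.125 and 0.508 CPM, of which the lowest, in horse 18, was 4 counts. EEF1A1 had 423, 287, 387, 314 and 281 CPM in MTJ libraries and 437, 242, 282, 259 and 196 CPM in Muscle libraries. In Tendon libraries EEF1A1 had 525, 494, 431, 492 and 479 CPM. Tendon and Muscle ranges of EEF1A1 overlapped through horse 14, whose Muscle library was the highest of its tissue for both genes. Muscle over Tendon the log2 fold change was 3.01 ± 0.43 for EEF1A2 and -0.83 ± 0.15 for EEF1A1 (adjusted p = 4.87e-05 and 0.000223, edgeR). MTJ over Tendon it was 2.71 ± 0.43 and -0.54 ± 0.15 (adjusted p = 0.00014 and 0.0053, edgeR). With only the Tendon libraries of horses 18 and 20, EEF1A2 was at 4.42 for Muscle over Tendon and 4.14 for MTJ over Tendon. MTJ over Muscle neither passed, at -0.30 ± 0.38 and 0.28 ± 0.15 (adjusted p = 0.713 and 0.297, edgeR).

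EEF1A2 made up 1.85% ± 0.507 of the counts of the pair in MTJ, 2.69% ± 0.717 in Muscle and 0.225% ± 0.191 in Tendon libraries (SD, n = 5 each). Its log2 ratio to EEF1A1 was -0.56 ± 0.23 (SD, n = 5) in MTJ minus Muscle, 3.55 ± 1.43 in MTJ minus Tendon and 4.11 ± 1.62 in Muscle minus Tendon, with the same sign in 5 of 5 horses. Each of these differences had an exact two-sided sign-flip p of 0.0625, the smallest possible. Over the 3 tissues together the ratio differed (exact permutation test by tissue within horses, p = 0.000772, the smallest possible). EEF1A1 was the more abundant form in all 15 libraries, with a level per length 60.2-fold above EEF1A2 in MTJ, 41.0-fold in Muscle and 705-fold in Tendon libraries (geometric means). The Tendon libraries ran from 207-fold to 3851-fold in horse 18, and their mean was 461-fold without that horse. RPL3L, by contrast, was the more abundant of its pair in every Muscle library. In the Tendon libraries EEF1A2 stood at 8.78, 38.0, 19.7, 1.98 and 7.50% of the horse's Muscle level, on few counts.

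As a share of all counts, the 81 ribosomal protein genes took 1.55, 1.27, 1.42, 1.38 and 1.22% in MTJ libraries. They took 1.63, 1.19, 1.17, 1.22 and 1.08% in Muscle libraries and 3.12, 2.78, 3.29, 4.03 and 3.46% in Tendon libraries. Every Tendon library lay above all others, while MTJ and Muscle overlapped. The means were 1.37% ± 0.132 in MTJ, 1.258% ± 0.211 in Muscle and 3.34% ± 0.462 in Tendon libraries (SD, n = 5 each), which differed by tissue (exact permutation test within horses, p = 0.00154, where 0.000772 is the smallest possible). MTJ exceeded Muscle by 0.109 percentage points ± 0.119 (SD), in 4 of 5 horses (exact two-sided sign-flip p = 0.125, smallest possible 0.0625). Horse 14 was the exception, and its Muscle library had the highest share of that tissue.

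**Figure D3:**
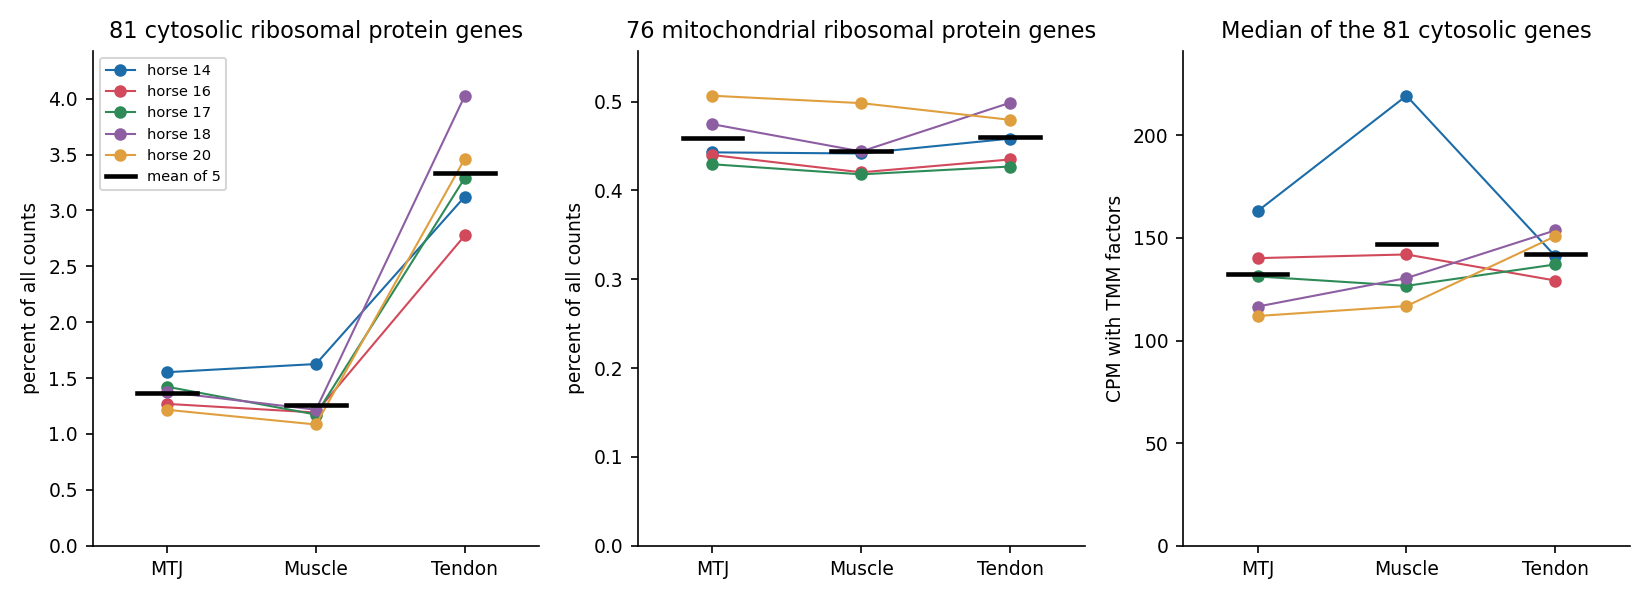
Percent of all counts in the 81 cytosolic (left) and 76 mitochondrial (middle) ribosomal protein genes, and the median CPM with TMM factors of the 81 genes (right), by library; lines join the libraries of a horse and black bars are means of 5. The cytosolic share is 2.78 to 4.03% in Tendon and at most 1.63% elsewhere, the mitochondrial share lies between 0.418 and 0.507% in all 15, and the median CPM overlaps among tissues.

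The mitochondrial ribosomal proteins, which belong to a separate ribosome that translates the few proteins encoded in mitochondria, took 0.459% ± 0.0317 of all counts in MTJ, 0.444% ± 0.0323 in Muscle and 0.460% ± 0.0300 in Tendon libraries (SD, n = 5 each). The scaled values look different from the shares, because TMM factors were 0.761 to 0.929 in MTJ, 0.671 to 0.747 in Muscle and 1.46 to 1.88 in Tendon libraries. With the factors, the median CPM of the 81 cytosolic genes was 133 ± 20.4 in MTJ, 147 ± 41.4 in Muscle and 142 ± 10.03 in Tendon libraries (SD, n = 5 each), and the tissues overlapped. The direction of an ordinary ribosomal protein gene between Muscle or MTJ and Tendon therefore depends on the scaling. For some genes a value against the median of the ribosomal protein genes is given below. The other log2 fold changes and all calls are against 0, with TMM factors unless another setting is named. With library totals alone the median log2 fold change over all 15343 genes was -1.11 for MTJ over Tendon and -1.36 for Muscle over Tendon, instead of -0.10 and -0.13. The share of all calls that were higher was then 15.4% for MTJ over Tendon and 14.4% for Muscle over Tendon, against 48.8 and 47.3% with the factors.

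Muscle over Tendon, 13 of the 82 genes tested were higher and 28 lower, 15.9 and 34.1% of them, where 34.5% of all genes tested were higher and 38.6% lower. The count of lower genes is near its background and that of higher genes below it. The median log2 fold change was -0.15 over the 80 ribosomal protein genes, and 59 of the 80 lay within 0.5 of that median and 75 within 1. With library totals alone 3 of the 82 were called higher (RPL3L, EEF1A2 and RPLP2) and 78 lower, where 12.4% of all genes were higher and 74.1% lower. Between the tissues' libraries, 10 of the 82 genes were higher and 7 lower with no overlap, 12.2 and 8.54% of them, against 25.1 and 26.6% of all genes tested.

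**Figure D4:**
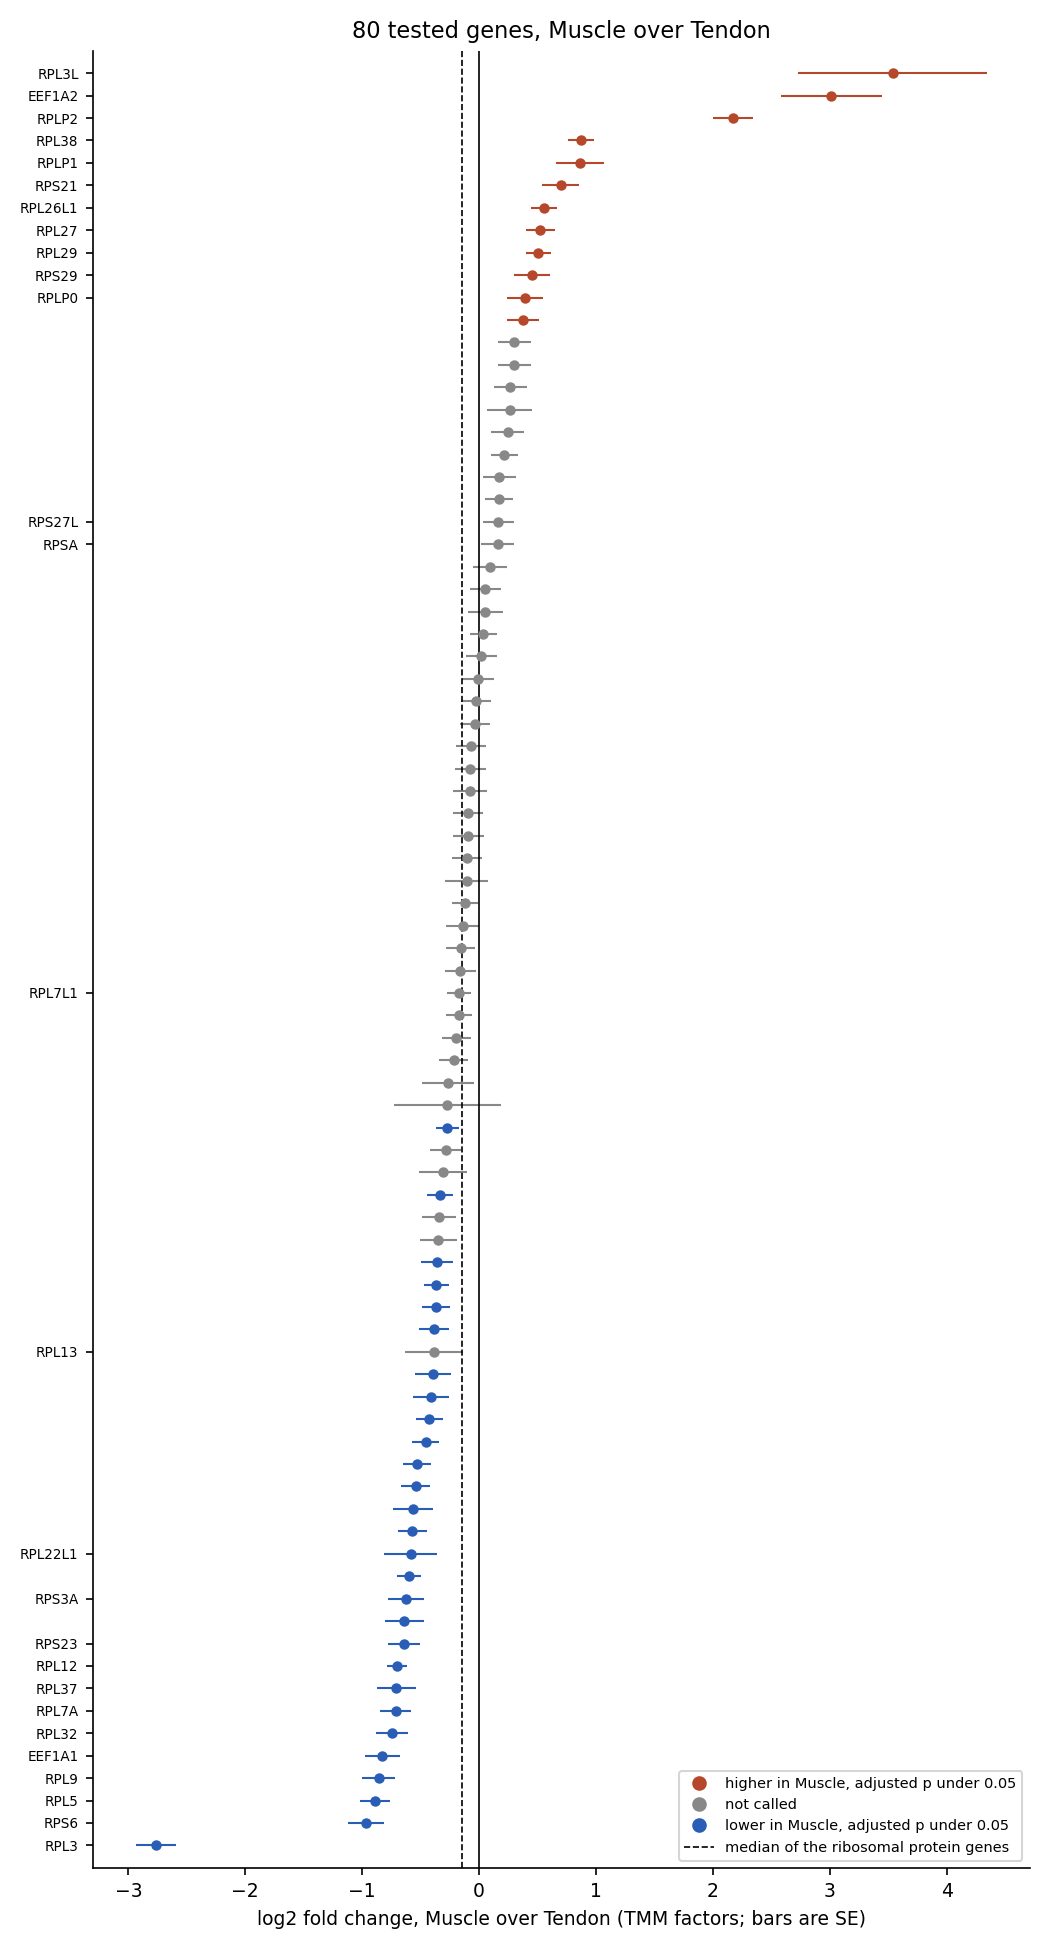
Log2 fold change, Muscle over Tendon, with SE for 80 of the 82 tested genes, sorted, with most of the genes named in the text labelled; red and blue mark genes called higher and lower in Muscle at adjusted p under 0.05 (edgeR, TMM factors), and the dashed line is the median of the ribosomal protein genes, -0.15. RPL3L, EEF1A2 and RPLP2 stand above 2, RPL3 below -2, and the others lie between -1 and 1. With library totals alone RPL3L, EEF1A2 and RPLP2 are the only genes called higher. RPL38, RPLP1, RPS21, RPL26L1, RPL27, RPL29, RPS29 and RPLP0 then turn below 0.

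The stalk proteins RPLP0, RPLP1 and RPLP2 form the flexible arm that recruits elongation factors to the large subunit, and RPLP2 was the ribosomal protein gene with the largest Muscle to Tendon change after RPL3L and RPL3. It had 586, 256, 299.6, 326 and 358 CPM in MTJ libraries and 819, 321, 335, 492 and 435 CPM in Muscle libraries. Tendon libraries had 129, 106, 105, 84.2 and 80.3 CPM, all below the lowest of the others. The log2 fold change was 2.17 ± 0.17 for Muscle over Tendon and 1.80 ± 0.17 for MTJ over Tendon (adjusted p = 1.82e-07 and 1.51e-06, edgeR). It stayed positive with library totals alone, at 0.94 and 0.79. In horse 18 the Tendon level of RPLP2 was 17.1% of the Muscle level, where the median muscle reference gene was at 0.332%, and over the other 4 horses RPLP2 was at 15.7 to 33.0%. MTJ over Muscle it was -0.38 ± 0.17, lower in MTJ in 5 of 5 horses, and did not pass (adjusted p = 0.217, edgeR), while the edgeR fit of only these 2 tissues gave -0.37 (adjusted p = 0.00241).

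RPLP1, which pairs with RPLP2 on the stalk, averaged 1347 ± 244 CPM in MTJ, 1559 ± 242 in Muscle and 862 ± 197 in Tendon libraries (SD, n = 5 each). Its log2 fold change was 0.86 ± 0.20 for Muscle over Tendon and 0.64 ± 0.20 for MTJ over Tendon (adjusted p = 0.00194 and 0.0137, edgeR). Without horse 14 the MTJ over Tendon value was 0.49 and missed the threshold (adjusted p = 0.0775, edgeR), and with library totals alone both values were negative, at -0.38 and -0.37. RPLP0, the base of the stalk, averaged 1062 ± 128 CPM in MTJ, 1209 ± 148 in Muscle and 919.8 ± 115 in Tendon libraries. It passed for Muscle over Tendon only, at 0.39 ± 0.16 (adjusted p = 0.0373, edgeR), with 0.20 ± 0.16 for MTJ over Tendon (adjusted p = 0.26, edgeR). The RPLP0 call was lost without horse 14, 17, 18 or 20, at 0.33, 0.45, 0.34 and 0.40, and the value was -0.84 with library totals alone. RPLP1, RPL7 and RPLP0 had the highest levels per length of all ribosomal protein genes, at 2374, 1316 and 968 CPM per 1000 units of the length column over 15 libraries.

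Besides RPL3L and the stalk, the large-subunit genes higher in Muscle than in Tendon at TMM scaling included RPL38, RPL26L1, RPL27 and RPL29. RPL38, known in mouse for its part in the translation of Hox mRNAs, had 80.8, 49.8, 53.0, 54.2 and 62.7 CPM in MTJ libraries and 100.2, 58.3, 48.0, 70.3 and 58.0 CPM in Muscle libraries. Its Tendon values were 39.0, 32.7, 29.7, 37.8 and 39.1 CPM, below every other library. RPL38 changed by 0.87 ± 0.11 for Muscle over Tendon and 0.74 ± 0.11 for MTJ over Tendon (adjusted p = 1.22e-05 and 7.2e-05, edgeR). Muscle over Tendon values were 0.56 for RPL26L1, a copy of RPL26, 0.52 for RPL27 and 0.51 for RPL29, all components of the large subunit. These 3 did not overlap between Muscle and Tendon libraries. The RPL27 call was lost with only the Tendon libraries of horses 18 and 20 (0.26, adjusted p = 0.0686, edgeR). With library totals alone RPL38 and these 3 genes were negative instead, from -0.37 for RPL38 to -0.73 for RPL29.

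After RPL3 the large-subunit genes with the lowest Muscle over Tendon values were RPL5, RPL9, RPL32, RPL7A, RPL37 and RPL12. RPL5, which carries 5S ribosomal RNA into the ribosome and restrains MDM2 when ribosome assembly fails, had 159, 146, 166, 132 and 137 CPM in MTJ libraries and 209.5, 149, 143, 114 and 131 CPM in Muscle libraries. Tendon libraries had 262, 257, 277, 291 and 268 CPM, above all others. RPL5 changed by -0.89 ± 0.13 for Muscle over Tendon and -0.88 ± 0.13 for MTJ over Tendon (adjusted p = 4.01e-05 and 5.47e-05, edgeR). RPL9, at -0.86 for Muscle over Tendon, and RPL12, a protein at the base of the stalk, at -0.70, also had no overlap between those libraries. RPL32 at -0.74, RPL7A at -0.71 and RPL37 at -0.71 did overlap, and in all 3 the highest Muscle value was that of horse 14. MTJ over Tendon the values were -0.83 for RPL9, -0.73 for RPL12, -0.71 for RPL32, -0.86 for RPL7A, -0.66 for RPL37 and -0.73 for RPL13. Of these, RPL37 and RPL13 overlapped between MTJ and Tendon libraries. RPL13 was uneven, with 60.6, 163, 142, 67.2 and 108 CPM in MTJ and 197, 195, 158, 153 and 151 CPM in Tendon libraries.

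In the small subunit, 3 genes were higher and 9 lower in Muscle than in Tendon of 32 tested, with a median of -0.11, against the 34.5 and 38.6% of all genes given above. RPS6, the subunit's main target of mTOR-driven phosphorylation, had 484, 395, 415, 383 and 331 CPM in MTJ libraries and 608, 433, 367, 355 and 317 CPM in Muscle libraries. Tendon libraries had 792, 721, 735, 904 and 812 CPM, above all others, and the log2 fold change was -0.97 ± 0.16 for Muscle over Tendon (adjusted p = 0.000105, edgeR). Read against the median of the ribosomal protein genes, RPS6 stood at -0.76 for MTJ over Tendon (adjusted p = 0.000103 for the change itself, edgeR). RPS23, a protein of the decoding centre, was at -0.65 for Muscle over Tendon, and RPS3A at -0.63, with -0.69 for MTJ over Tendon. RPS21 was higher, at 0.70 ± 0.16 for Muscle over Tendon and 0.51 ± 0.16 for MTJ over Tendon (adjusted p = 0.00158 and 0.0123, edgeR), but negative with library totals alone (-0.54 and -0.50). RPS29, at 0.45 for Muscle over Tendon, passed in all libraries but not without horse 14 (0.27, adjusted p = 0.0790, edgeR) or horse 18 (0.41, adjusted p = 0.0553, edgeR), and was -0.79 with library totals alone. RPSA, which doubles as a laminin receptor, passed in no comparison, with 37.4 ± 12.9 CPM in MTJ, 49.0 ± 24.5 in Muscle and 41.4 ± 10.1 in Tendon libraries (SD, n = 5 each).

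Read against the median of the ribosomal protein genes, which does not move with scaling factors, the Muscle over Tendon value was 3.69 for RPL3L, 2.32 for RPLP2, 1.02 for RPL38, 1.01 for RPLP1, -0.82 for RPS6 and -2.62 for RPL3. Across the other settings run and with each horse left out, the RPL3 value by this measure stayed between -2.68 and -2.54 and that of RPLP2 between 2.17 and 2.84. That of RPL3L ranged from 3.07 without horse 18 to 6.28 with only the Tendon libraries of horses 18 and 20.

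Other ribosomal protein genes also have a close paralog. RPL7L1, a nucleolar relative of RPL7, averaged 86.3 ± 10.9 CPM in MTJ, 83.6 ± 12.6 in Muscle and 95.3 ± 21.4 in Tendon libraries, and its Muscle over Tendon value of -0.17 ± 0.10 did not pass (adjusted p = 0.148, edgeR). RPL7L1 passed without horse 17, at -0.26 (adjusted p = 0.0433, edgeR), and with only the Tendon libraries of horses 18 and 20, at -0.31 (adjusted p = 0.0360, edgeR), and was at -0.06 without horse 18. RPS27L, a relative of RPS27 induced by p53 in human cells, was at 0.17 ± 0.13 and RPS27 at -0.20 ± 0.12, neither of which passed (adjusted p = 0.272 and 0.172, edgeR). RPS27L was at 0.30 without horse 18, where it passed (adjusted p = 0.0360, edgeR), at 0.06 without horse 14 and at -0.15 with only the Tendon libraries of horses 18 and 20. RPL22L1 was lower in Muscle than in Tendon, at -0.59 ± 0.22, while RPL22 at -0.08 ± 0.15 did not pass (adjusted p = 0.0308 and 0.651, edgeR), and the RPL22L1 call was lost without horse 16, 17 or 20 (-0.63, -0.55 and -0.35). RPL26L1 was higher, at 0.56 ± 0.11, while RPL26 at -0.35 ± 0.16 did not pass (adjusted p = 0.000643 and 0.0654, edgeR). The difference within these 4 pairs was not tested.

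MTJ over Tendon, 10 of the 82 genes were higher and 32 lower, 12.2 and 39.0% of them, where 32.7% of all genes tested were higher and 34.4% lower. The MTJ and Muscle comparisons share the Tendon libraries, so their likeness is not a result of its own. The genes called higher included RPL3L, EEF1A2, RPLP2, RPL38, RPLP1, RPS21, RPL26L1, RPL27 and RPL29, from 3.21 for RPL3L to 0.32 for RPL29. The lowest 3 were RPL3, RPS6 and RPL5, and 7 of the 82 were higher and 17 lower with no overlap, 8.54 and 20.7% of them, against 23.6 and 21.9% of all genes tested. The RPL27 call (adjusted p = 0.0298, edgeR) was lost without horse 14, 16 or 17. The RPL26L1 call was lost without horse 17 (0.29, adjusted p = 0.0727, edgeR) and that of RPL13 without horse 18 (-0.59, adjusted p = 0.0564, edgeR). With only the Tendon libraries of horses 18 and 20, 7 genes were higher and 49 lower for MTJ over Tendon, where 29.7 and 27.0% of all genes tested were. For Muscle over Tendon the counts were then 10 and 45, where 31.3 and 32.5% of all genes were. The values of RPL27 and RPL26L1 for MTJ over Tendon were then 0.08 and 0.10, and that of RPS21 was 0.29, none of them called.

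MTJ over Muscle, RPL3 was the only one of the 82 genes called higher and 0 were lower (edgeR), 1.22% of them, where 6.17% of all genes tested were higher and 0.554% lower. At an unadjusted p under 0.05 the counts were 1 higher and 2 lower in edgeR and 1 and 5 in DESeq2, which called 1 and 0. DESeq2 called 7.46% of all genes higher and 1.87% lower. In the edgeR fit of only the MTJ and Muscle libraries, RPL3 and EEF1A1 were higher and RPL3L, RPLP2 and RPL10 lower. The values of the 80 ribosomal protein genes ran from -0.38 for RPLP2 to 0.71 for RPL3 with a median of -0.09, and 79 of the 80 lay within 0.5 of it. Only RPL3 of the 82 separated the MTJ from the Muscle libraries without overlap, higher in MTJ, where 4.61% of all genes did so higher and 1.02% lower.

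Short transcripts tended to lie higher in Muscle over Tendon. The median log2 fold change was 0.05 over 21 ribosomal protein genes with a length under 600 and -0.34 over 20 with a length of 900 or more, leaving out RPL3 and RPL3L. Across 78 genes Spearman's rho with length was -0.30, a description, since the genes share the same libraries. Over all 15343 genes tested the medians in these classes were 0.54 and -0.16 and rho was -0.15, the same direction. With only the Tendon libraries of horses 18 and 20, rho over the 78 genes was -0.18.

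**Figure D5:**
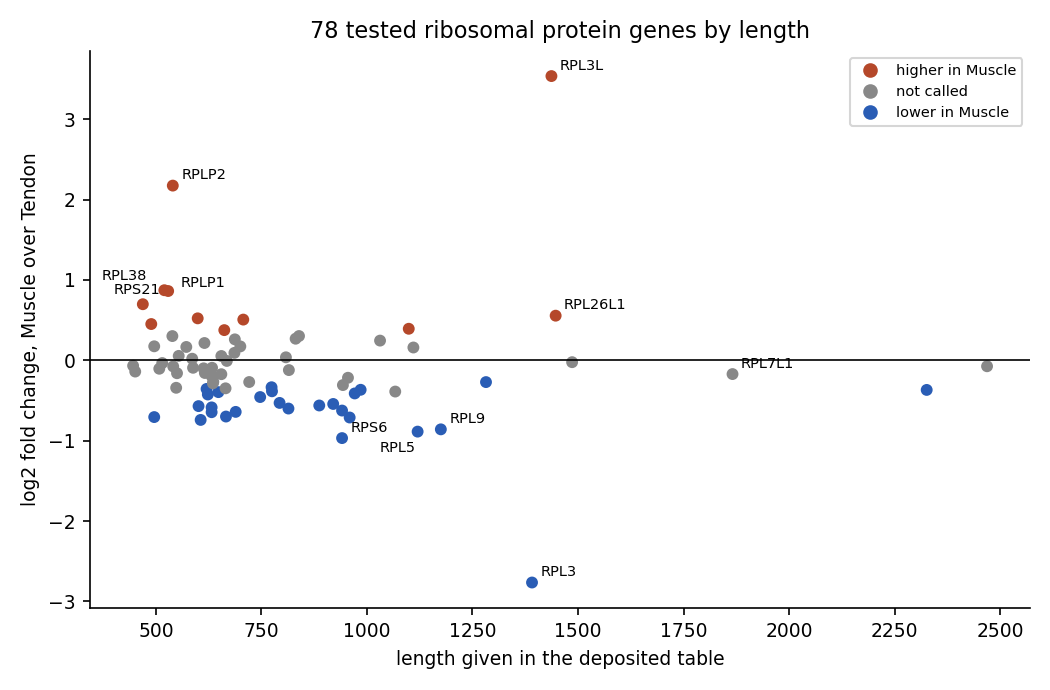
Log2 fold change, Muscle over Tendon, against the length given in the deposited table for 78 of the 80 tested ribosomal protein genes; red and blue mark genes called higher and lower in Muscle. Below a length of 600 the median is 0.05 and at 900 or more it is -0.34, over all 80 genes but RPL3 and RPL3L.

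The table holds 20 further rows described as the same protein under another symbol. RPS4X had 830 counts in all against 27287 in such a row, RPL23A 753 against 6477 and RPL21 1640 against 4228. RPLP1 and RPL12 had 318370 and 26674 counts against 65084 and 25511 in such rows. RPSA had 11553 against 8597, 2495 and 56 in such rows. Whether reads of 1 gene were split between such rows was not tested, so levels of these genes are uncertain. The lowest levels per length included 0.0967 for RPL10L and 1.01 CPM per 1000 units for RPL11. With the further rows added, an alternative chosen after seeing the data, 13 genes were higher and 29 lower for Muscle over Tendon and 10 and 33 for MTJ over Tendon. Over all genes 34.5 and 38.6% were then called for Muscle over Tendon and 32.7 and 34.5% for MTJ over Tendon.

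The Muscle library of horse 14 stood apart in these genes. Against the median of the other 4 Muscle libraries, the median ribosomal protein gene was 0.68 higher there on the log2 scale, and 59 of 80 were over 0.5 higher and 0 were over 0.5 lower. The largest were RPSA at 1.13, RPS21 at 1.12, RPL39 at 1.11 and RPS12 at 1.11. The MTJ library of horse 14 was likewise 0.39 higher, with 22 genes over 0.5 higher, while its Tendon library was 0.05 higher. Among the other libraries the largest deviation of this median was -0.242, in the Muscle library of horse 20. With library totals alone horse 14 was at 0.59 in Muscle, 0.21 in MTJ and -0.10 in Tendon. The MTJ library of horse 20 was then at -0.21, and the Tendon libraries of horses 16 and 18 at -0.32 and 0.31, so only the Muscle library of horse 14 stood apart under both scalings. Without horse 14, 10 of the 82 genes were higher and 35 lower for Muscle over Tendon, where 32.8 and 36.1% of all genes tested were, and 7 and 38 for MTJ over Tendon, where 30.9 and 30.6% were.

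Genes that act with the ribosome were set beside its proteins, and their counts stand against all-gene shares of 34.5% higher and 38.6% lower for Muscle over Tendon. Of 9 elongation factors other than the EEF1A pair, 4 were higher and 2 lower in Muscle than in Tendon, with a median of 0.22. EEF1G, EEF1D and EEF2, which reload EEF1A or move the ribosome along, changed by 1.73 ± 0.16, 1.21 ± 0.10 and 1.13 ± 0.15 (SE), and EIF5A by 1.45 ± 0.14. With library totals alone EEF1D was at -0.03 and EIF5A at 0.21, neither of them called. Only 1 of the 9 elongation factors was then called higher and 5 lower for Muscle over Tendon, where 12.4 and 74.1% of all genes were. EIF5A2, its paralog, changed the other way, by -2.25 ± 0.20 for Muscle over Tendon, -1.41 ± 0.19 for MTJ over Tendon and 0.84 ± 0.21 for MTJ over Muscle, a call lost without horse 14, 16, 18 or 20. Of 33 initiation factors 22 were higher and 5 lower, with a median of 0.43, among them EIF3I at 2.04 ± 0.12 and EIF4G1, the scaffold of the cap-binding complex, at 1.93 ± 0.18. PABPC1, the cytoplasmic poly(A)-binding protein, whose mRNA also has the pyrimidine tract, was lower at -1.81 ± 0.11. MTJ over Tendon the counts were 4 higher and 2 lower of the 9, and 20 and 5 of the 33. MTJ over Muscle they were 1 and 0, and 0 and 0 (edgeR), with 1 and 2, and 2 and 2 at an unadjusted p under 0.05, and 1 and 2, and 0 and 2 in DESeq2.

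Of 46 ribosome assembly genes 14 were higher and 14 lower in Muscle over Tendon (34.5 and 38.6% over all genes), 15 and 13 in MTJ over Tendon (32.7 and 34.4% over all genes), and 0 and 0 in MTJ over Muscle (edgeR), where 0 and 1 had an unadjusted p under 0.05 and DESeq2 called 0 and 0. NHP2 and NOP10, of the complexes that modify ribosomal RNA, were higher in Muscle at 1.73 ± 0.12 and 1.04 ± 0.11 (NOP10 at -0.20 with library totals alone), and NAT10, an RNA acetyltransferase, lower at -0.84 ± 0.13. Of 10 genes of RNA polymerase I, which makes ribosomal RNA, and its factors, 3 were higher and 6 lower in both comparisons with Tendon and 0 passed between MTJ and Muscle (edgeR), where 1 was lower at an unadjusted p under 0.05 and 1 in DESeq2. Examples for Muscle over Tendon are TAF1C at -1.03 ± 0.32 and POLR1D at 0.75 ± 0.13, which was -0.49 with library totals alone. TAF1C was not called with only the Tendon libraries of horses 18 and 20 (-0.80). Of 11 other genes with the pyrimidine tract, 4 were higher and 3 lower for Muscle over Tendon, 4 and 4 for MTJ over Tendon, and 1 and 0 for MTJ over Muscle. TPT1 changed by 1.67 ± 0.14 for Muscle over Tendon. VIM, vimentin of mesenchymal cells, changed by -2.85 ± 0.15 for Muscle over Tendon and 0.85 ± 0.14 for MTJ over Muscle.

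Of 17 genes of mTOR signalling and translation control 10 were higher and 1 lower for Muscle over Tendon, 9 and 2 for MTJ over Tendon, and 0 and 1 for MTJ over Muscle. MTOR and MLST8, subunits of the kinase complexes, changed by 1.37 ± 0.13 and 1.56 ± 0.13 for Muscle over Tendon (MTOR at 0.13 and not called with library totals alone), and MYC, a driver of ribosome gene transcription, by -1.54 ± 0.18. AKT2 was lower in MTJ than in Muscle, at -0.52 ± 0.13, a call lost without any 1 of the 5 horses. Of 74 mitochondrial ribosomal protein genes 70 were higher and 0 lower in Muscle than in Tendon, 67 and 0 in MTJ than in Tendon, and 0 and 3 in MTJ than in Muscle, the 3 being MRPS36, MRPL10 and MRPL45, each lost without horse 14, 17, 18 or 20, and MRPS36 also without horse 16. At an unadjusted p under 0.05 the MTJ over Muscle counts were 0 and 31 in edgeR, DESeq2 called 0 and 7, and the fit with only the Tendon libraries of horses 18 and 20 called 0 and 14. Over all genes, 6.17 and 0.554% were called for MTJ over Muscle in edgeR, 7.46 and 1.87% in DESeq2 and 7.63 and 3.84% in that fit. MRPL21 and MRPL12 changed by 2.40 ± 0.17 and 2.38 ± 0.16 for Muscle over Tendon. With library totals alone 31 of the 74 were higher and 13 lower in Muscle than in Tendon, initiation factors were 4 and 23 of 33, and assembly genes 1 and 44 of 46. The mTOR and translation control genes were then 2 and 11 of 17, and 2 and 10 for MTJ over Tendon. Elongation factors were 1 and 5 of 9, other genes with the pyrimidine tract 1 and 9 of 11, and RNA polymerase I genes 0 and 10 of 10 for Muscle over Tendon. Over all genes 12.4% were then higher and 74.1% lower in Muscle than in Tendon, and 12.8 and 70.5% in MTJ than in Tendon. The median of the mitochondrial set was 1.37 for Muscle over Tendon with TMM factors, against -0.15 for the cytosolic set.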

How the data were processed

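RNA-seq of 15 libraries from 5 horses was analysed from the deposited gene table. Per the file headers, the authors gave gene counts, a gene length, a symbol and a description for 30297 rows, with no aligner, counting rule or strand setting named there. Per the labels' protocols, RNA was enriched with oligo-dT or depleted of ribosomal RNA, primed at random and sequenced on DNBseq. The submitters' processing notes name DESeq2 1.26.0 and the build EquCab3.0. A second block of 15 columns, rlog values under the same names, was not used. The authors' deposited table of MTJ against a predicted mixture gives log2 values and adjusted p-values, whose model is not given in the sources used here.

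Counts were tested with edgeR 4.0.16 (R 4.3.3, limma 3.58.1; quasi-likelihood, TMM factors, tissue plus horse) over all 15343 genes left after filterByExpr had removed 14954, with Benjamini-Hochberg adjustment over all of them and a threshold of 0.05. Horses pair the libraries because the 3 come from the same animal: deviations of same-horse libraries from their tissue means correlated at 0.15 to 0.589 over 15 pairs. Pairs from different horses ran from -0.711 to 0.343, which overlaps that range. Of the 15 libraries, 12 correlated best with a library of their own horse. Libraries held 15304218 to 19295339 counts, and intervals cover counting error only. Ratios and shares were compared by exact permutation within horses (Python 3.11.15, numpy 2.4.6, scipy 1.17.1; figures with matplotlib 3.10.9), with 0.5 counts added. Alternatives were DESeq2 1.42.0, RLE factors, library totals, no filter, no block, only the tissues compared, each horse left out, Tendon libraries of horses 14, 16 and 17 left out, other added counts, and rows annotated as copies added. Scripts were tested on simulated data. Genes and lists were chosen with earlier results of these data known. Genes named were RPL3L, RPL3 and the EEF1A pair, stalk proteins, paralogs, RPSA, and per comparison up to 10 called genes in each direction with a mean of at least 5 CPM, the 3 highest and 3 lowest per length, and, from the other lists, up to 4 called genes with the largest change. A few genes are not reported here. Reads of paralogs and copies may be split between rows, so such levels are uncertain. With horses as blocks, p-values set tissue differences against how far those differences vary among these horses, after differences in level between horses are removed.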

Additional observations from a re-analysis of the deposited data

Results flagged for a closer look

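Of the 96 groups of 5 libraries examined for a library set apart from the other 4 (Dixon's test at the 95% level), 8 held one, where chance marks about 1 group in 20. Of these, 7 concerned horse 14. Its Muscle library had the highest EEF1A2 level, at 15.1 CPM against 4.68 to 6.90 in the other 4 Muscle libraries. In that library RPL32 stood at 91.05 CPM against 48.5 to 51.9, RPS23 at 129.5 CPM against 65.9 to 70.2 and RPL37 at 232 CPM against 112 to 130.5. The share of all counts in ribosomal protein genes was 1.63% there against 1.08 to 1.22%, and their median level 219 CPM against 117 to 142. In MTJ libraries horse 14 was highest for RPL37, at 219 CPM against 110.9 to 134. The remaining case was RPS29 in the MTJ library of horse 18, which at 17.8 CPM lay below the 33.4 to 37.4 CPM of the others.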

How the results depend on the processing

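With library totals alone 2 of the 82 genes (EEF1A1 and RPL3) were higher in MTJ than in Muscle. Over all genes 15.4% were higher and 0.0782% lower there. For MTJ over Tendon 3 of the 82 were higher and 77 lower, where 12.8 and 70.5% of all genes were. For Muscle over Tendon 3 were higher and 78 lower, where 12.4 and 74.1% of all genes were. By construction this scaling shifts the genes of a comparison nearly alike, and the following log2 fold changes turned sign. MTJ over Muscle, RPLP0 was at 0.040 and RPLP1 at 0.0065. MTJ over Tendon, RPL38 was at -0.28, RPLP1 at -0.37, RPS21 at -0.50, RPL26L1 at -0.66, RPL27 at -0.68, RPL29 at -0.69 and RPLP0 at -0.80. Muscle over Tendon, RPL38 was at -0.37, RPLP1 at -0.38, RPS21 at -0.54, RPL26L1 at -0.68, RPL27 at -0.72, RPL29 at -0.73, RPS29 at -0.79, RPLP0 at -0.84, RPS27L at -1.07 and RPSA at -1.08. In a fit of only the MTJ and Muscle libraries, which changes the samples and the genes tested, 2 genes were higher and 3 lower, and over all genes 1488 were higher and 1450 lower against 947 and 85. With only the Tendon libraries of horses 18 and 20, 1 gene (RPLP2) was lower in MTJ than in Muscle, 49 were lower in MTJ than in Tendon and 45 in Muscle than in Tendon. Over all genes 3.84, 27.0 and 32.5% were then lower in these comparisons. RPS27L turned to -0.15 for Muscle over Tendon. The cause of these changes was not tested. With each horse left out in turn, 0 to 1 genes were higher in MTJ than in Muscle, 0 without horse 17, 18 or 20. The counts were then 7 to 10 higher and 22 to 38 lower for MTJ over Tendon, and 10 to 13 higher and 19 to 35 lower for Muscle over Tendon. Over all genes 30.2 to 31.5% were higher and 30.2 to 32.6% lower for MTJ over Tendon. For Muscle over Tendon these shares were 32.6 to 33.2% and 35.6 to 36.4%. RPSA, not called for Muscle over Tendon, ranged from -0.018 without horse 14 to 0.26. Over all genes MTJ over Muscle gave 576 to 741 higher and 18 to 40 lower with a horse left out, and 1145 and 287 in DESeq2, where 80% of calls were higher against 91.8%.

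Without the horse block, which pairs the libraries of an animal, 1 gene was higher and 0 lower for MTJ over Muscle, 7 and 25 for MTJ over Tendon and 11 and 20 for Muscle over Tendon, against 1 and 0, 10 and 32, and 13 and 28 with the block. The shares over all genes fell too. They were 4.24 and 0.0847%, 29.8 and 30.7%, and 32.3 and 35.8% without the block. With it they were 6.17 and 0.554%, 32.7 and 34.4%, and 34.5 and 38.6%. Without the block the calls of RPL27 and RPL13 for MTJ over Tendon and of RPLP0, RPL22L1 and RPS29 for Muscle over Tendon were lost. The exact tests of the ratios without pairing gave p = 7.93e-06 for RPL3L over RPL3 and 7.93e-05 for EEF1A2 over EEF1A1. The ratios kept their direction under each alternative run on them, with 4.96 to 6.42 for the log2 ratio of RPL3L over RPL3 in MTJ minus Tendon when a horse was left out and 8.26 with only the Tendon libraries of horses 18 and 20. None of the genes has more than 1 row per symbol, so summing rows changed nothing. Among RPL3L, RPL3, EEF1A1 and EEF1A2, depth limits EEF1A2 most, with 4 counts in the Tendon library of horse 18. Some other tested genes had fewer counts in all, such as RPL11 with 211 and RPL22L1 with 1066, against 1115 for EEF1A2.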
